A study of Drosophila melanogaster with 4 samples.

Results

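The heat shock and chaperone loci of Drosophila melanogaster are 5 stretches of chromosome 3 that hold some of the best known stress genes of the fly. They are the Hsp83 locus on arm 3L and, on arm 3R, the Hsp70A cluster (Hsp70Aa and Hsp70Ab), the Hsp70B cluster (Hsp70Ba, Hsp70Bb and Hsp70Bc), the locus of the heat shock RNA omega, and the Hsc70-4 locus. RNA polymerase II, or Pol II, was mapped there by ChIP-seq, which sequences the DNA that an antibody pulls down with the protein bound to it. The loci were chosen by position, as windows on release 5 of the fly genome, and with earlier results of these data in view: they hold many of the highest Pol II scores. The Hsp83 window spans 3L:3190000-3202000, the Hsp70A window 3R:7770000-7795000 and the Hsp70B window 3R:8285000-8340000. The window of the heat shock RNA omega spans 3R:17119000-17134000 and that of Hsc70-4 3R:11065000-11076000. Because scores chose the loci, scores and ranks are given as a description, without a test. Of 7517 enriched regions in replicate 1, 11 lay in the windows, as did 10 of 6487 in replicate 2 and 10 of 8273 in the list of the replicate set.

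All samples were nuclei of wild-type Oregon-R larvae of instar 3, the last larval stage, with no heat shock named in the labels. The antibody is labelled RNA Pol II (abcam). There were 2 ChIP replicates and, as their reference, 2 input libraries of chromatin without immunoprecipitation. The labels cross the inputs: ChIP replicate 1 has input replicate 2 as its partner, and ChIP replicate 2 has input replicate 1. Whole larvae hold many tissues, so that a score averages over cells that may differ. Whether each replicate was a collection of larvae of its own is not stated, and the spread they show may be a technical one.

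Heat shock proteins are chaperones that keep other proteins folded. Hsp83 is the fly Hsp90, a chaperone of kinases and receptors that is made without stress and more so with it. The Hsp70 genes of the A and B clusters are near-identical copies, are hardly expressed in unstressed flies and are among the most strongly induced genes on heat shock. They are also the classic case of a paused polymerase, in which Pol II waits just past the start of the gene until the heat shock factor releases it. Hsc70-4 is the main Hsp70 relative of unstressed cells and helps to take apart clathrin coats. The heat shock RNA omega is a long non-coding RNA that collects RNA-binding proteins in the nucleus. All 8 names matched a symbol of the RefSeq gene table.

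Each region has 1 score, a log2 value read here as ChIP over input. Folds are scores taken off the log2 scale, and the range in parentheses after one is its 95% interval, for counting error alone. Because only the reduced fraction of the reads is known, these ranges are upper limits of that error. The reads carry no molecular identifiers, so they need not be separate molecules, and where they are not the ranges can be too narrow. Replicate 1 held at least 5.06 M ChIP and 1.97 M input reads in its enriched regions and replicate 2 at least 4.70 M and 1.93 M. Total library depth is unknown. Each list carries its own scaling constant, so scores are compared within a list, and values of different lists are set side by side. Both windows and scores come from region lists, in which a position within a region has no value of its own. Pol II waiting near a start site and Pol II along the whole gene cannot be told apart here.

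At 8-fold or more, 7 regions stood at the loci in each of the 3 lists, and every locus had at least 1 of them. Over the whole lists this level was reached by 0.426% of the regions in replicate 1, 1.74% in replicate 2 and 0.665% in the replicate set. The rule was made with these scores known, so nothing is read from the difference. Of the 10 highest scores, 6 lay at the loci in each list. In replicate 2 and in the replicate set no region elsewhere scored above the highest one at the loci. In replicate 1 there was 1, at 25.5-fold, and the highest region at its place in replicate 2 had 4.49-fold.

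**Figure D1:**
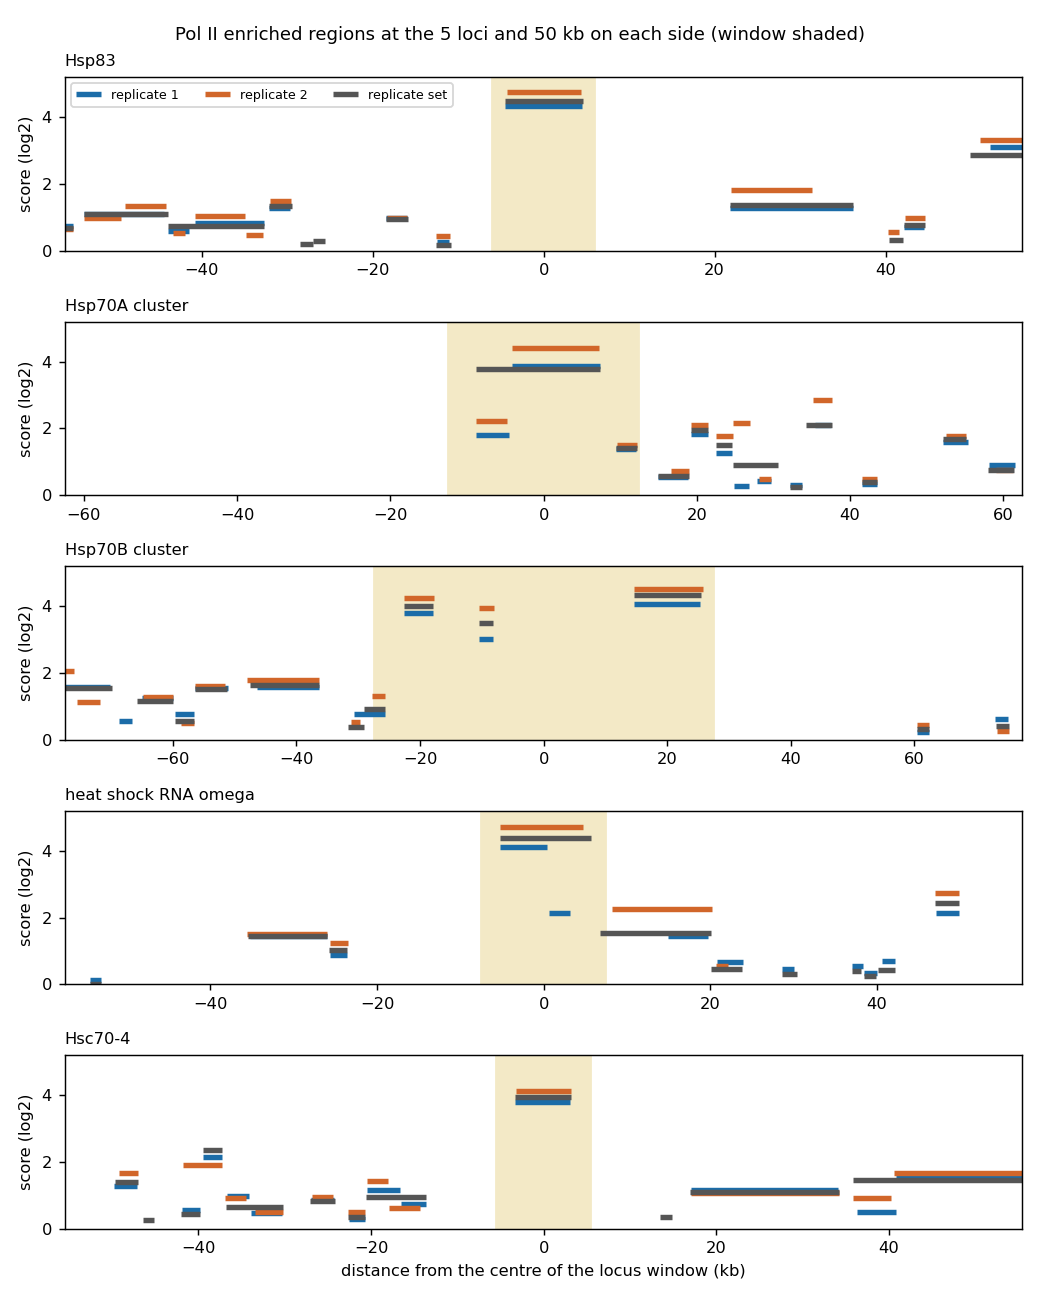
Enriched regions at the 5 loci, with the log2 score of each region on the vertical axis against the distance in kb from the centre of the locus window, which is shaded. Each bar is 1 region, coloured by list, and spans its extent. Every window holds at least 1 bar at a score of 3 (8-fold) or more in all 3 lists, and no bar lies in the 50 kb before the Hsp70A window.

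Hsp83 carried the highest score of the loci in all 3 lists. A single region covered the locus, on 3L from 3191491 to 3200493 in replicate 1, from 3191672 to 3200404 in replicate 2 and from 3191494 to 3200610 in the replicate set. Its level was 20.3-fold in replicate 1 (19.1 to 21.5), 26.8-fold in replicate 2 (25.3 to 28.4) and 22.6-fold in the replicate set (19.8 to 25.7). It ranked 2, 1 and 1 in these lists. The region was 9.00 kb wide in replicate 1 and 8.73 kb in replicate 2, wider than 96.3% and 95.9% of the regions of those lists. Beside Hsp83 the RefSeq table lists CG14965 before it and CG14966, CG32276 and gry after it. That table is of release 6, so the genes inside the region were not determined.

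Hsc70-4, the constitutive relative, also had 1 region in each list, on 3R from 11067203 to 11073598 in replicate 1 and from 11067281 to 11073649 in replicate 2. Its level was 13.8-fold in replicate 1 (12.9 to 14.9), 17.3-fold in replicate 2 (14.5 to 20.7) and 15.3-fold in the replicate set (10.7 to 21.7). By its highest region Hsc70-4 was the lowest of the 5 loci in both replicates, at ranks 6 and 7, but not in the replicate set, where its score of 3.93 lay above the 3.77 of the Hsp70A cluster. The next region lay 10.3 kb before and 14.0 kb after it in replicate 1, and 11.1 kb before and 13.9 kb after it in replicate 2, while the median gap between regions was 3997 bp in replicate 1 and 5406.5 bp in replicate 2. The gaps beside Hsc70-4 were longer than 70.1% and 75.6% of all gaps in replicate 1, and than 66.6% and 71.5% in replicate 2. The RefSeq neighbours are tefu, the fly ATM kinase, before it and Amt after it.

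The Hsp70A cluster, with 2 stress-induced Hsp70 copies, was covered by 3 regions in each replicate. The main region ran on 3R from 7778327 to 7789856 in replicate 1, at 14.7-fold (13.9 to 15.6), and from 7778316 to 7789764 in replicate 2, at 21.4-fold (20.3 to 22.6). It ranked 5 and 4. A weaker region lay before it, at 3.49-fold (3.04 to 4.00) in replicate 1 and 4.69-fold (4.25 to 5.18) in replicate 2, separated by 363 bp and 613 bp. A region after it had 2.61-fold (1.5 to 4.55) in replicate 1 and 2.86-fold (2.02 to 4.06) in replicate 2. The replicate set joined the first and the main region into 1 of 16.2 kb, on 3R from 7773690 to 7789858. Its level there was 13.7-fold (13.2 to 14.1) at rank 9, below the main region of either replicate. The region after it had 2.65-fold (2.43 to 2.89) in that list, on 3R from 7791890 to 7794648. The RefSeq neighbours of the pair are CG31211 before it, and CG3281 and aurA, the Aurora A kinase, after it. The joined region takes in the weaker stretch, and the part this plays in the lower score was not tested.

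The Hsp70B cluster had 4 regions in every list, of which 3 were strong. The first, at the edge of the window, had 1.72-fold (1.56 to 1.90) in replicate 1 and 2.49-fold (2.05 to 3.03) in replicate 2. The second ran on 3R from 8289923 to 8294596 in replicate 1, at 13.8-fold (12.6 to 15.1), and from 8289877 to 8294807 in replicate 2, at 19.03-fold (17.5 to 20.7). The third was narrow, 2.22 kb in replicate 1 and 2.43 kb in replicate 2, on 3R from 8302054 to 8304270 and from 8302061 to 8304491. It had 8.13-fold (6.85 to 9.66) in replicate 1, 15.6-fold (12.1 to 20.0) in replicate 2 and 11.4-fold (10.1 to 12.9) in the replicate set. The fourth was the strongest and widest of the cluster, on 3R from 8327177 to 8337853 in replicate 1, at 16.8-fold (14.9 to 18.9), and from 8327159 to 8338332 in replicate 2, at 23.1-fold (21.7 to 24.7). It ranked 4 and 3. In the replicate set the first region had 1.89-fold (1.69 to 2.12), the second 16.1-fold (13.3 to 19.6) and the fourth 20.1-fold (18.7 to 21.5).

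Stretches without any region separated these parts, and only the last was long for the lists. The gap between the first and the second region was 3.08 kb in replicate 1 and 2.99 kb in replicate 2, longer than 43.5% and 36.2% of all gaps. The gap between the second and the third region was 7.46 kb in replicate 1 and 7.25 kb in replicate 2, longer than 63.4% and 56.8%. Between the third and the fourth it was 22.9 kb in replicate 1, 22.7 kb in replicate 2 and 22.9 kb in the replicate set, longer than 83.6%, 80.5% and 84.9% of the gaps of these lists. In the RefSeq table of release 6 the order along this stretch is CG5608, Hsp70Ba, the long non-coding RNA of the alphagamma-element (CR32865), Hsp70Bbb, the pseudogene CR46154, Hsp70Bb, the pseudogene CR46155, Hsp70Bc and Octbeta3R, a receptor for octopamine. The alphagamma-element is repeated sequence known to be transcribed on heat shock in this species. Gene positions of release 5 were not used here, so the regions were not assigned to single genes. The copies share nearly all their sequence, and how reads with several possible places were treated is not given in the sources used here. A score at either Hsp70 cluster may hold reads from other copies. A stretch without regions may be one where reads were not placed, which was not tested.

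The heat shock RNA omega, a non-coding RNA of the stress response, had the second highest score of the loci in all 3 lists. In replicate 1 the locus was split into 1 region on 3R from 17121295 to 17126965, at 17.2-fold (14.6 to 20.3), and 1 from 17127177 to 17129684, at 4.41-fold (1.27 to 15.3), only 211 bp apart. For the weaker region the fraction reduced to 14 ChIP over 3 input reads, which gives its wide range. In replicate 2 a single region ran from 17121267 to 17131258, at 26.2-fold (24.2 to 28.3) and rank 2. In the replicate set it ran from 17121280 to 17132146, at 21.0-fold (19.9 to 22.3), also at rank 2. A further region of the replicate set, 13.3 kb wide at 2.89-fold (2.64 to 3.17), reached into the window with 5.47% of its length. The matching region of replicate 2, at 4.75-fold, began 773 bp outside the window and so is not counted at the locus, and that of replicate 1, at 2.73-fold, began 7463 bp outside it. The RefSeq neighbours of this RNA are CG17298 before it, and mir-4951 and aus after it.

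**Figure D2:**
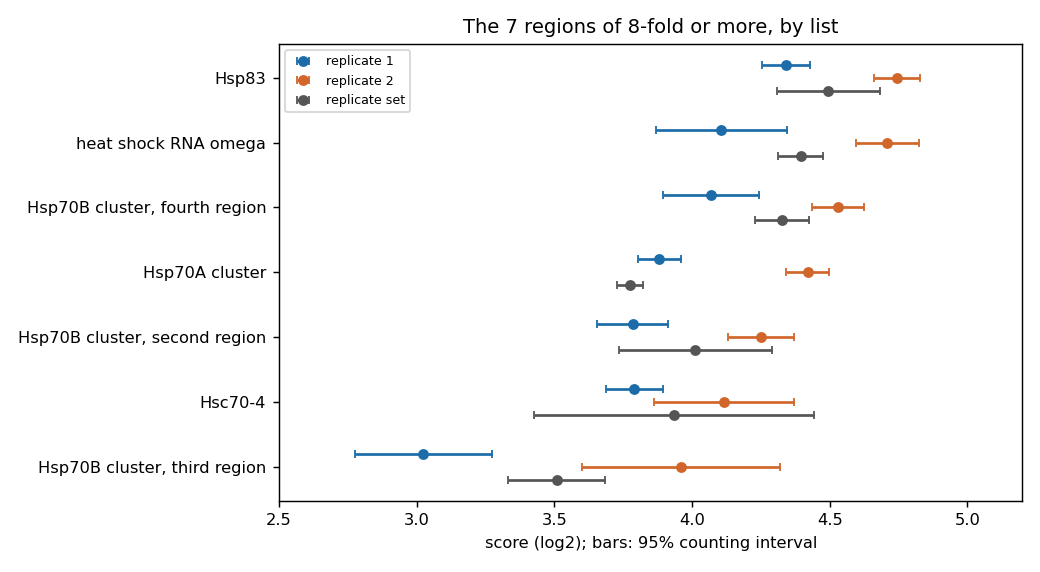
Scores (log2) of the 7 regions of 8-fold or more at the loci in replicate 1, replicate 2 and the replicate set, ordered by the mean of the replicates from the top. Points are scores, which include the constant of each list, and bars are 95% counting intervals. Each region scored higher in replicate 2 than in replicate 1, and the replicate set lies between them except at the Hsp70A cluster.

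The order of the 7 strong regions was Hsp83, heat shock RNA omega, the fourth Hsp70B region, the Hsp70A region, the second Hsp70B region, Hsc70-4 and the third Hsp70B region, by the mean of the replicates. Both replicates gave this order, except that in replicate 1 the second Hsp70B region minus Hsc70-4 was −0.01 (−0.17 to 0.16) on the log2 scale. In replicate 2 that difference was 0.13 (−0.15 to 0.42). Differences between neighbours in this order follow, with their ranges for counting error, as a description and not as a test. Hsp83 exceeded the heat shock RNA omega by 0.23 (−0.02 to 0.49) in replicate 1 and by 0.04 (−0.11 to 0.18) in replicate 2. The heat shock RNA omega exceeded the fourth Hsp70B region by 0.04 (−0.26 to 0.33) in replicate 1 and by 0.18 (0.03 to 0.33) in replicate 2. That region in turn exceeded the Hsp70A region by 0.19 (−0.0039 to 0.38) in replicate 1 and by 0.11 (−0.01 to 0.23) in replicate 2. The Hsp70A region exceeded the second Hsp70B region by 0.10 (−0.05 to 0.25) in replicate 1 and by 0.17 (0.03 to 0.31) in replicate 2, and this turned in the replicate set, where its joined region lay 0.24 lower. Hsc70-4 exceeded the third Hsp70B region by 0.77 (0.50 to 1.04) in replicate 1 and by 0.16 (−0.28 to 0.60) in replicate 2. These ranges are upper limits only if the reads are separate molecules. A range that includes 0 does not show that a pair is level, and one that leaves out 0 does not show that it differs.

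The replicates placed the starts of the strong regions, and most of their ends, close together, though the ends no closer than is usual for matched regions of 8-fold or more. The start differed by 7 to 181 bp between the replicates in all 7 regions, and the end by 51 to 479 bp in 6 of them. At the heat shock RNA omega the end differed by 4293 bp, where replicate 1 split the locus. In the other 6 the shared bases made up 90.6% to 99.1% of the bases in either replicate's region. The median over all 4851 regions that matched 1 to 1 was 92.9%, and over the 47 such pairs with a mean of 8-fold or more it was 97.0%. Those 47 include matched strong regions of the loci, and 97.0% is the value of Hsp83 itself. The median start and end differences were 60 and 61 bp over all matched regions, and 26 and 51 bp over the 47 pairs. No end of a strong region differed by less than 51 bp. All 11 regions at the loci in replicate 1 overlapped a region of replicate 2, where 80.8% of all its regions did, and all 10 in replicate 2 overlapped replicate 1, where 93.5% did. All 10 of the replicate set overlapped both replicates, where 66.4% of that list did. The loci were picked from these lists by score, so nothing particular to them is read from these counts.

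**Figure D3:**
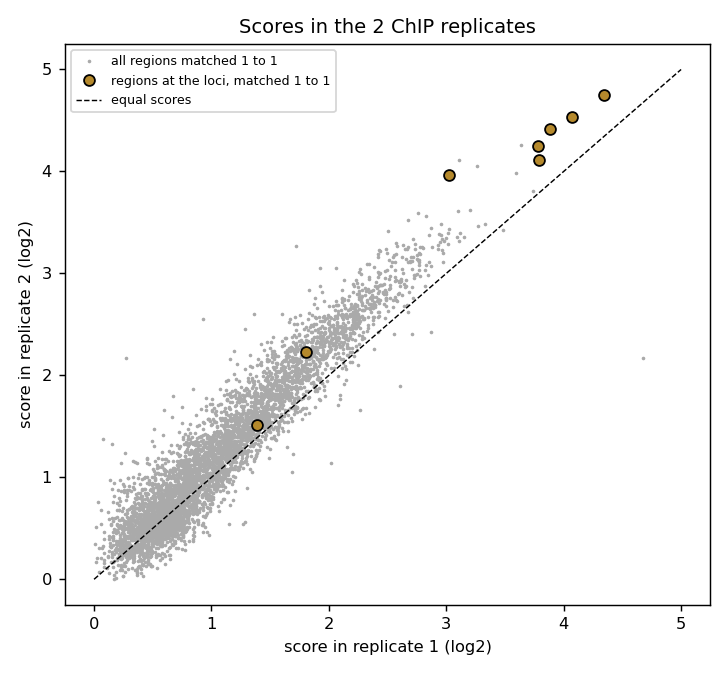
Score in replicate 2 against score in replicate 1 (both log2) for the 4851 regions matched 1 to 1, with the 8 matched regions at the loci marked and a dashed line of equal scores. The regions at the loci lie above the line, as do most regions of high score, and the third Hsp70B region (3.02 and 3.96) lies farthest from it. Scores include the constant of each list.

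Scores were higher in replicate 2 than in replicate 1 in all 7 strong regions, by 0.33 to 0.94 on the log2 scale. All differences given here include the gap between the list constants, which were −0.08 in replicate 1 and 0.27 in replicate 2. Their ranges cover counting error alone, so a range that leaves out 0 does not show more Pol II in replicate 2. Over all 4851 matched regions the median difference was 0.16, and it grew with the score, by 0.18 for each log2 unit in a straight-line fit. The strong regions did not all follow this line, around which the SD of all matched regions was 0.22. The third Hsp70B region lay off it by 0.34. Every other strong region lay under it, from −0.16 at the heat shock RNA omega to −0.38 at Hsp83. The 47 pairs with a mean of 8-fold or more had a median difference of 0.40. They include matched strong regions of the loci, and the median is the value of Hsp83 itself, at place 24. Hsp83 had a difference of 0.40 (0.28 to 0.52) and the Hsp70A region of 0.54 (0.43 to 0.65). The third Hsp70B region differed most, by 0.94 (0.50 to 1.37), and held the second highest difference when set among those 47 pairs, whose values went from −2.51 to 1.00. Its mean score was 3.49 ± 0.66 (SD, n = 2), against 4.54 ± 0.29 (SD, n = 2) for Hsp83. These SDs include the constant by which the lists differ.

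Many of the regions were also broad. Of the 11 regions in replicate 1, 6 were 5 kb or wider, where 14.0% of the whole list was. In replicate 2 it was 5 of 10, where 13.4% was, and in the replicate set 6 of 10, where 16.5% was. Some of these lay mostly outside the windows. In replicate 1 the first Hsp70B region, 5.05 kb wide, had 36.5% of its length inside, and in replicate 2 it was 2.19 kb wide. In the replicate set a region of 13.3 kb had 5.47% of its length inside the heat shock RNA omega window. Widths of the strong regions went from 2.22 to 11.5 kb in replicate 1, with a median of 6.40 kb, and from 2.43 to 11.4 kb in replicate 2, with a median of 8.73 kb. Width is not named in the rule that chose the loci, but it is not independent of that choice. The window edges were drawn around known regions, and the 5 kb threshold was set with earlier results known. Counting any overlap of 1 bp also favours wide regions. No test was made of width. The regions at the loci came to 64.7 kb in replicate 1, which was 0.265% of its enriched bases, and to 63.9 kb or 0.298% in replicate 2.

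The windows also held weaker regions. The 4 under 8-fold in replicate 1 went from 1.72 to 4.41-fold, and the 3 in replicate 2 from 2.49 to 4.69-fold. Over the whole lists the median was 1.72-fold (replicate 1) and 2.05-fold (replicate 2).

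The windows were next set against the 50 kb on each side of them. Inside the 5 windows together, 51.4% of the bases lay in regions of both replicates, against 33.9% in the 10 flanks and 15.9% on the 6 main arms. By single replicate the windows were 53.0% ± 1.3 (SD, n = 2) covered and the flanks 38.8% ± 2.3 (SD, n = 2). The window edges were drawn around known regions, so the share inside is partly set by them. Coverage differed between the loci. The Hsp83 window was 72.8% covered in both replicates, the Hsp70A window 72.0%, the Hsc70-4 window 57.4%, the heat shock RNA omega window 54.5% and the Hsp70B window, with its gaps, 35.3%.

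**Figure D4:**
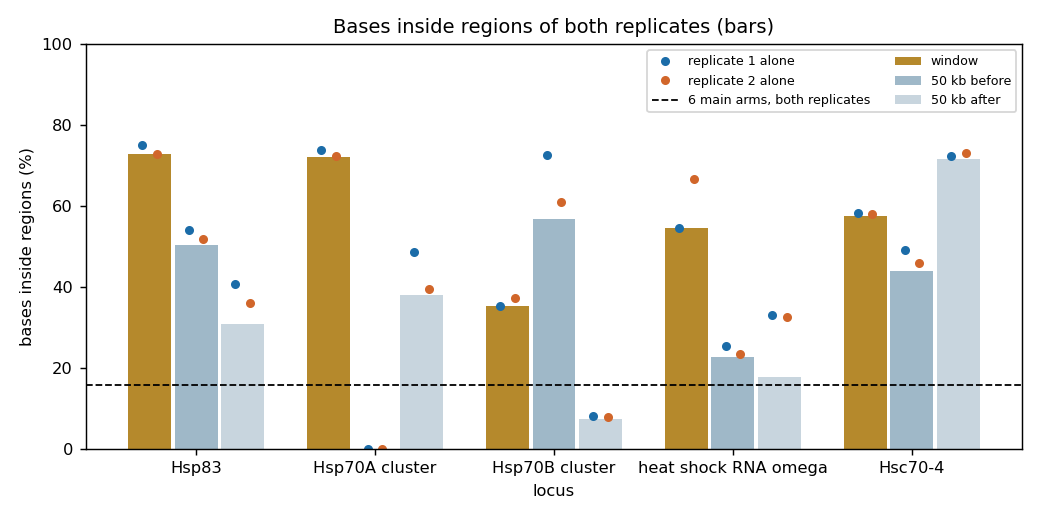
Bases inside regions, in percent, for each locus window and the 50 kb before and after it. Bars are bases covered in both replicates, points are single replicates and the dashed line is the share over the 6 main arms (15.9%); the Hsp70A flank before the window is at 0% and the Hsc70-4 flank after it is at 71.6%.

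The surroundings of the loci differed from one another. Around the Hsp70A cluster, no region of any list lay in the 50 kb before the window, and 37.9% of the 50 kb after it was covered in both replicates. The gap before its first region was 59.8 kb in replicate 1 and 59.7 kb in replicate 2, longer than 94.0% and 93.5% of the gaps of those lists. The Hsp70B cluster stood between 56.7% coverage before and 7.47% after. Hsc70-4 stood between 44.0% before and 71.6% after, Hsp83 between 50.4% and 30.8%, and the heat shock RNA omega between 22.7% and 17.8%. By single list the flank after the heat shock RNA omega was the more covered one. It had 33.1% against 25.5% before in replicate 1, 32.6% against 23.4% in replicate 2 and 50.7% against 26.0% in the replicate set. Of its bases covered in either replicate, 37.0% were covered in both, against 86.6% in the flank before. Sequence gaps in these stretches were not measured.

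Regions in the flanks were of ordinary strength. There were 50 in replicate 1 and 47 in replicate 2, with medians of 1.79-fold and 2.05-fold, near the medians of the whole lists. Only 1 flank region in each replicate reached 8-fold. It lay after Hsp83 on 3L, from 3248252 to 3252805 at 8.60-fold (7.65 to 9.68) in replicate 1 and from 3247011 to 3253011 at 9.99-fold (8.82 to 11.3) in replicate 2, and in the replicate set it had 7.30-fold. The Hsp83 region stood 2.35 times (2.06 to 2.69) above it in replicate 1 and 2.69 times (2.34 to 3.08) in replicate 2. Towards the other side the highest flank region had 2.41-fold in replicate 1 and 2.78-fold in replicate 2, and Hsp83 stood 8.40 times (7.32 to 9.64) and 9.64 times (7.74 to 12.01) above it.

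At the other loci the highest region also stood above every flank region in each replicate. After the Hsp70A cluster the highest flank region had 4.31-fold (replicate 1) and 7.17-fold (replicate 2). The Hsp70A cluster was 3.42 times (2.86 to 4.09) above it in replicate 1 and 2.99 times (2.61 to 3.41) in replicate 2. After the Hsp70B cluster the highest flank region had 1.54-fold in replicate 1 and 1.37-fold in replicate 2, so that the fourth Hsp70B region was 10.9 times (7.54 to 15.8) and 16.9 times (14.0 to 20.5) above it. Before the cluster the highest flank region had 3.01-fold and 4.14-fold, and these ratios were 5.56 (4.86 to 6.37) and 5.58 (5.04 to 6.19). Beside the heat shock RNA omega the highest flank regions had 2.73-fold in replicate 1 and 2.86-fold in replicate 2 before it, and 4.37-fold and 6.71-fold after it. The ratios there were 6.32 (5.29 to 7.55) and 9.13 (7.68 to 10.9) before, and 3.94 (3.23 to 4.80) and 3.90 (3.28 to 4.63) after. Beside Hsc70-4 they had 4.48-fold in replicate 1 and 3.75-fold in replicate 2 before it, and 2.87-fold and 3.19-fold after it. The ratios there were 3.09 (2.68 to 3.56) and 4.62 (3.29 to 6.48) before, and 4.82 (4.39 to 5.30) and 5.43 (4.49 to 6.57) after. These ratios are within a list, so the constants cancel, and they describe loci that were picked for high scores. No region deposited as depleted lay in the windows or their flanks in any of the 3 lists. The whole lists held only 7 such regions in replicate 1, 2 in replicate 2 and 47 in the replicate set, so nothing is read from their absence here.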

How the data were processed

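Pol II ChIP-seq was made in 2 ChIP replicates with 2 inputs. The submitters' processing notes name Bowtie 0.12.7, a read aligner. The authors deposited enriched and depleted regions on FlyBase release 5, per the file headers, with 1 log2 score each. The program that called them is not given in the sources used here. Every score of an enriched region could be written as a constant of its list plus the log2 of 1 whole number over another (−0.08, 0.27 and 0.09 in replicate 1, replicate 2 and the replicate set; tolerance 1e-11, denominators up to 20000). The numbers are read as ChIP over input reads; the files do not say so. The search for these ratios was tested on simulated lists, which does not bear on what the numbers count.

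A region counted at a locus when it overlapped the window by at least 1 bp. Python 3.11.15 with numpy 2.4.6, pandas 2.3.3 and matplotlib 3.10.9 was used. The loci, lists and thresholds (8-fold, 5 kb) were chosen with earlier results of these data known. All regions at the loci are given in the text or by their ranges, and for each replicate the highest flank region on either side by its value. No test of the loci was run: the scores chose the loci. A list of 19 further heat shock genes, and promoter sequences and motifs, were not analysed here for want of release 5 gene positions and sequences. RefSeq names are of release 6.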

Additional observations from a re-analysis of the deposited data

How the results depend on the processing

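The number of regions at the loci (10.5 per replicate) stayed within 1.5 times under all its alternatives. The median over the loci of the highest score (4.30 on the log2 scale) stayed within the SD of the replicates, also at the lower end of the counting interval (4.15). For this median several outcomes were fixed in advance. With 2 replicates, leaving 1 out moves a mean by less than their SD. Keeping the higher-scoring 50% or widening the windows cannot remove the highest region of a locus picked for high scores. A share covered in both replicates is 1 value without an SD. It was held against the SD of the 2 single-replicate coverages, 1.3 for the windows and 2.3 for the flanks, in percentage points. The share of the windows covered in both replicates, 51.4%, moved by more than the 1.3 with windows widened by 5 kb (37.4%) and in the replicate set list (55.7%). With 1 replicate left out it was 52.1% to 53.9%, and it moved by more than the 1.3 without replicate 1 (53.9%). The share of the flanks, 33.9%, moved to 22.4% in the higher-scoring 50% of each list, 28.2% with flanks of 20 kb and 45.7% in the replicate set list. It also moved by more than the 2.3 with either replicate left out (37.1% to 40.4%). Of the window bases covered in either replicate, 94.1% were covered in both, and 83.8% with windows widened by 5 kb. Keeping fewer regions cannot raise coverage, by construction. Bases covered in both replicates also cannot exceed those covered in 1 of them, so the shares with 1 replicate left out could only be equal or higher. The share in the replicate set is of 1 list and not of bases shared by 2. The cause of the moves with flanks of 20 kb and with widened windows was not tested. Of 25 alternative values 16 stayed, 9 moved and 0 reversed. Because some of these outcomes were fixed in advance, the counts do not measure how firm the results are. The alternative for promoter motifs was not run, for want of sequences. No paired analysis was possible because both ChIP replicates belong to 1 group and no input has regions to pair with them. Total depth is not known from the lists. The standard error from counting of a strong region, an upper limit if the reads are separate molecules, was at most 0.13 in replicate 1 and 0.18 in replicate 2 on the log2 scale.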
